A study of Mus musculus with 20 samples.

Results

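Collagens are the structural proteins of connective tissue, and the 43 genes described here are the protein-coding genes of the expression table whose symbol has the form Col, a number, the letter a and a number. They were taken by symbol alone from 29049 genes with a value in at least 1 library of dorsal root ganglia (DRG) taken whole, which hold sensory neurons with their glia, vessels and connective tissue. Each of 10 C57Bl6 mouse embryos of age E18.5, 5 male and 5 female, gave 1 RNA sequencing library of its L4 and L5 ganglia, called lumbar here, and 1 of its L6 and S1 ganglia, called sacral. Level and sex thus made 4 groups of 5 libraries each, and the labels name no transgene or treatment in any of them. The study compared these levels because the ganglia that supply the pelvic organs lie at L6-S1, and it compared the sexes within each level.

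A collagen molecule is built from 3 chains that wind into a triple helix, and the winding needs glycine at regular steps along each chain. Fibrillar collagens (types I, II, III, V and XI) form banded fibrils. Types II, IX, X and XI belong to cartilage. Types I and III are the main fibrils of skin, tendon, bone and fascia. Fibril-associated collagens with interrupted helices (FACIT) sit on the surface of fibrils, type VI forms beaded filaments around cells, and type IV forms the sheet-like network of basement membranes. In a ganglion, basement membrane surrounds vessels and each neuron with its satellite glia, and fibrillar collagen lies in the capsule and the endoneurium.

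The sequence feature that all of these genes share is shown first. Since the collagen name goes with this repeat, its presence in all of them is not a result of these data. In the mm9 genome (NCBIM37) with GENCODE M1 coding exons, a run was counted where at least 5 triplets of codons in a row started with a glycine codon. Each line gives 54 bases of 1 gene, 5′ to 3′ on the coding strand, with the glycine codons of the repeat in capitals. Col1a1, Col2a1, Col6a1, Col12a1 and Col14a1 are shown by their first coding exon of exactly 54 bases (coding exons 8, 6, 9, 54 and 36), Col8a1 by the start of its longest run, and Col4a1 by a stretch in which the repeat breaks off.
Col1a1 (chr11:94801218-94801271, plus strand): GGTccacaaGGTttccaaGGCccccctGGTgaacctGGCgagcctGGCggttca
Col2a1 (chr15:97828976-97829029, minus strand): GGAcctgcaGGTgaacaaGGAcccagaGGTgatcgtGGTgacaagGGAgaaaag
Col6a1 (chr10:76182368-76182421, minus strand): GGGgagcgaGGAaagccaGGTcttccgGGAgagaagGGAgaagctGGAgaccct
Col12a1 (chr9:79462156-79462209, minus strand): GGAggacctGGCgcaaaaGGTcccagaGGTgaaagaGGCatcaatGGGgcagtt
Col14a1 (chr15:55299515-55299568, plus strand): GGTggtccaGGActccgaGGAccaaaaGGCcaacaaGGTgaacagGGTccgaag
Col8a1 (chr16:57628152-57628205, minus strand): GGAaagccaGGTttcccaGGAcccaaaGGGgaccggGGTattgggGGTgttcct
Col4a1 (chr8:11241137-11241190, minus strand): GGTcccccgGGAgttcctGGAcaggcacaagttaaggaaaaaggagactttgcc

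The 54-base exons shown hold 6 glycine-led triplets and begin with a glycine codon. The longest run of Col1a1 held 338 triplets and that of Col2a1 339, in genes with 21 and 24 coding exons of 54 bases. Col3a1 had a run of 344 triplets. In type IV the repeat was split: Col4a1 had 19 runs, the longest of 40 triplets, and Col4a2 had 22, the longest of 66. Col12a1 and Col14a1, both FACITs, had 4 runs each, the longest of 32. The longest run of Col6a1 and of Col6a2 held 87 triplets, that of Col8a1 and of Col10a1 held 61, and these last genes have 2 coding exons each.

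**Figure D1:**
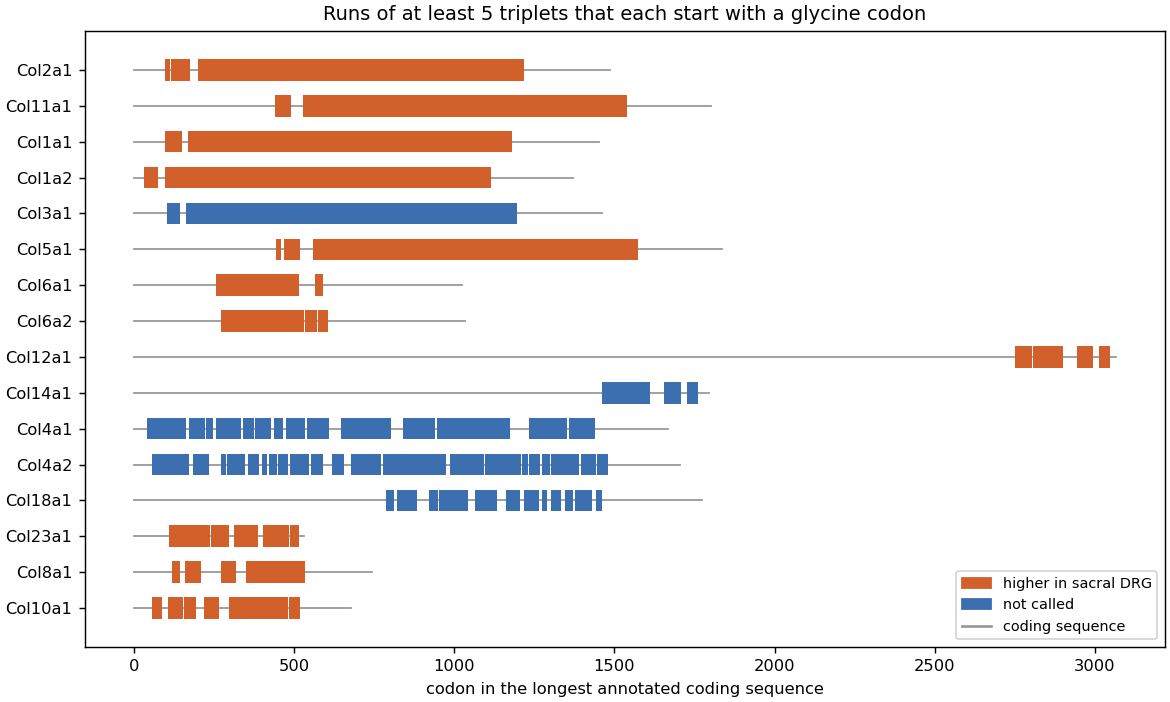
Runs of at least 5 glycine-led triplets (bars) along the longest annotated coding sequence (line, in codons) of 16 collagens; orange marks genes that were higher in sacral DRG and blue genes that were not called. Col1a1, Col1a2, Col2a1, Col3a1, Col5a1 and Col11a1 carry 1 run of over 300 triplets, Col4a1, Col4a2 and Col18a1 many short ones, and Col12a1 and Col14a1 short runs at the end of the coding sequence.

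Positions of genes below are on the same mm9 build. Depth and RNA composition varied between the libraries. Reads recovered from the steps of the values summed to 19403023 (sacral F7) up to 39257771 (lumbar F8) per library. Mitochondrial ribosomal RNA took from 18.1% of them (95% Wilson interval 18.11 to 18.14, sacral F3) to 61.4% (61.42 to 61.46, lumbar M5). Intervals cover counting error only, since no molecular identifiers are described for these amplified libraries. All 10 sensory neuron markers on a list passed the expression filter at both levels. Their summed level lay between 186 and 803 RPKM (reads per kilobase of gene, scaled to make libraries comparable). Donor F8 stood apart: its lumbar library was the richest lumbar library in collagen, and results are given with and without it where it matters.

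The 43 collagens together took from 0.159% of reads (95% Wilson interval 0.157 to 0.160) in the lumbar library of male M5 to 0.922% (0.918 to 0.927) in the sacral library of female F7. In the donor order M1, M3, M5, M7, M8, F3, F7, F8, F9 and F10, which is kept throughout, the lumbar shares were 0.401, 0.325, 0.159, 0.302, 0.319, 0.386, 0.355, 0.508, 0.281 and 0.274%. The sacral shares were 0.494, 0.410, 0.346, 0.443, 0.483, 0.561, 0.922, 0.501, 0.364 and 0.475%. The sacral share was the higher in every donor except F8. Without the mitochondrial rRNA reads, shares ran from 0.362% (lumbar F9) to 1.68% (sacral F7), and F8 was again the exception, at 0.902% lumbar and 0.804% sacral. In a whole ganglion, more cells of a type and more RNA per cell cannot be told apart.

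Many collagens of cartilage, fibrils, beaded filaments and the short chain group were higher in sacral DRG, and no basement membrane chain was called. The test took in genes whose geometric mean (the mean of the log2 values) was 1 RPKM or more in some group, which held for 25 of the 43 members. Of these, 14 were higher in sacral than in lumbar DRG of the same donors (limma with donor as a block, adjusted p of at most 0.05 over 14529 genes) and 0 were lower. Across all tested genes 2.70% were called higher and 4.03% lower, or 6.73% in either direction. The median log2 difference of the 25 was 0.60, beside a median of -0.05 over all tested genes. Of the 25, 3 passed the filter only through sacral groups (Col16a1, Col4a5 and Col8a2), and among the 22 that passed at both levels 13 were called, with a median of 0.55. The 14 differences lay between 0.42 and 1.15, or 1.34- to 2.21-fold. In 13 of the 25 the sacral library was the higher in 9 or 10 of the 10 donors, which held for 4.68% of all tested genes. The sacral and lumbar ranges overlapped for each of the 25 (no overlap in 0.0619% of all tested genes). The count of 14 fell to 7 when donor M5 or F10 was left out and to 9 without M8, F3 or F7, and was 15 without F8. Without the donor block it was 3 (Col6a2, Col8a1 and Col12a1), and with no filter on low values, where all 43 members and more genes share the adjustment, it was 8. No member was called lower by limma or by voom on the recovered reads, and 0 had an unadjusted p under 0.05 in that direction.

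**Figure D2:**
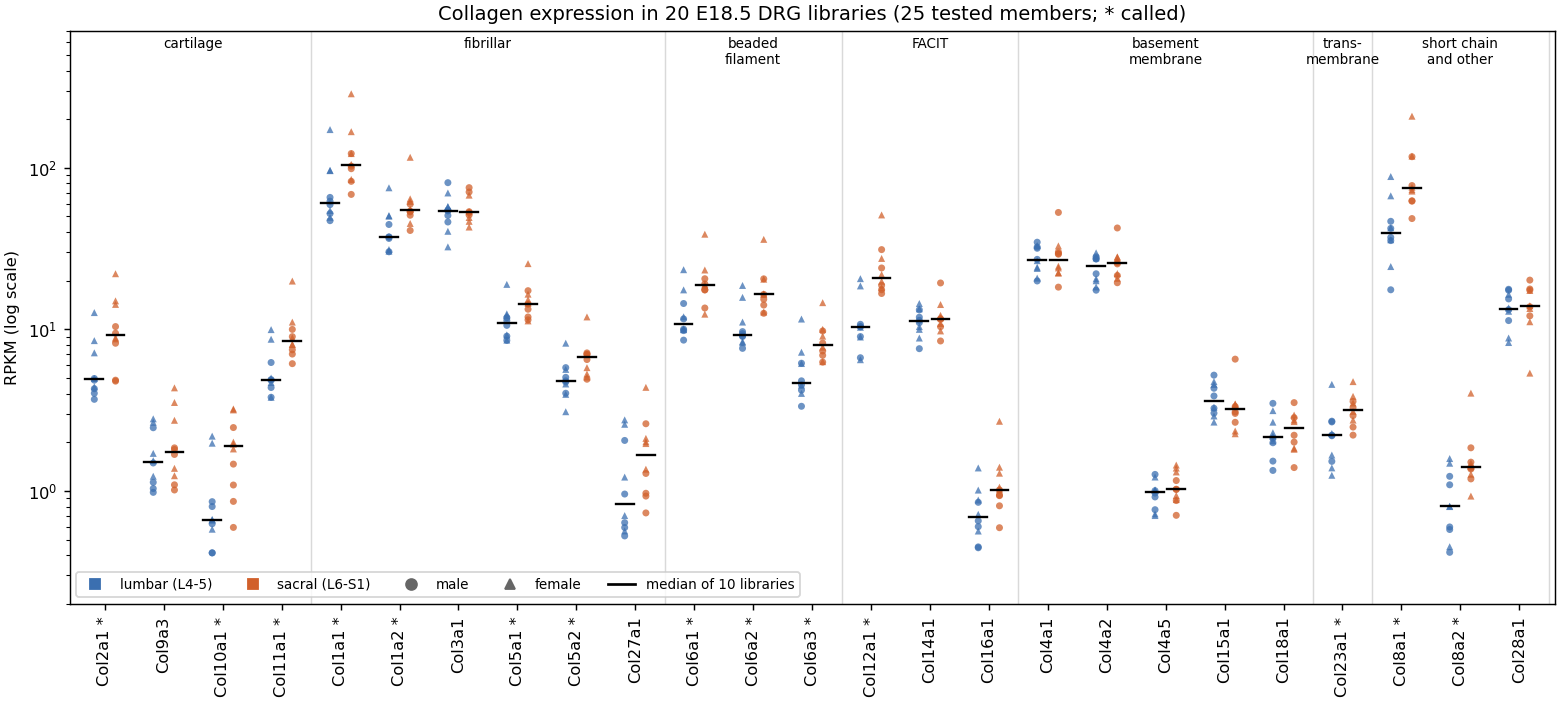
Expression (RPKM, log scale) of the 25 tested collagens in each of the 20 libraries, by class; blue lumbar, orange sacral, circles male, triangles female, bars the median of 10 libraries and asterisks the 14 called genes. Col1a1 is the highest, with medians of 60.6 lumbar and 104 sacral, and the Col4a1 medians lie level at 26.9 RPKM.

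Type II collagen, the main fibril of cartilage, was among the higher genes. Col2a1 (chr15:97806033-97835155, minus strand) was at 4.96, 3.69, 4.29, 4.85 and 4.02 RPKM in the lumbar libraries of the males and 4.96, 12.7, 8.51, 7.15 and 4.41 in those of the females. In sacral libraries it was at 4.85, 4.78, 8.20, 10.4 and 9.47 in males and 8.87, 22.1, 15.01, 14.3 and 8.73 in females. Every donor but M1 had the higher value on the sacral side, and the F7 libraries were the highest at both levels. The log2 difference was 0.80 ± 0.16 (SE; 1.75-fold, limma, adjusted p = 0.00554), and it stayed past the threshold when any 1 donor was left out.

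Col11a1 (chr3:113733458-113923636, plus strand) codes for a chain of type XI collagen, which copolymerizes with type II. Its lumbar values were 6.23, 4.89, 3.80, 4.36 and 4.84 RPKM in males and 5.0003, 8.68, 9.96, 3.80 and 4.69 in females. On the sacral side they were 7.03, 6.13, 9.99, 7.47 and 9.01 in males and 8.09, 19.9, 11.1, 8.05 and 8.87 in females. The sacral library was the higher in all 10 donors, as for 0.895% of all tested genes, by the least in F8 and M1. The difference was 0.76 ± 0.15 (1.70-fold, limma, adjusted p = 0.00529) and was called in each leave-one-donor-out fit. Its partner chain Col2a1 stood at a similar level, with a median Col2a1 to Col11a1 ratio of 0.967 in lumbar and 1.07 in sacral libraries.

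Col10a1 (chr10:34109787-34116891, plus strand), the collagen of hypertrophic cartilage at growth plates, was low. It was at 0.626, 0.8001, 0.858, 0.413 and 0.414 RPKM in lumbar male and 0.667, 2.18, 1.97, 0.659 and 0.579 in lumbar female libraries. Sacral libraries held 0.861, 0.594, 2.47, 1.46 and 1.09 in males and 2.004, 3.17, 1.82, 1.95 and 3.22 in females. M3 and F8 were the exceptions to a higher sacral value, and 37 to 256 reads per library lay behind the values. In lumbar DRG Col10a1 passed the filter through the females alone, at a geometric mean of 1.02 RPKM beside 0.593 in the males. The difference was 1.08 ± 0.25 (2.12-fold, limma, adjusted p = 0.0153), and the adjusted p was 0.0621 without F10. The gene lies wholly within Nt5dc1 on the opposite strand, and whether the counting used the strand is not stated.

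The other cartilage chains were low or not called. Col9a3, of type IX, had medians of 1.51 RPKM lumbar and 1.74 sacral, with a difference of 0.21 ± 0.20 (limma, adjusted p = 0.529). Col9a1, Col9a2 and Col11a2 stayed under the filter, with means of 0.443, 0.595 and 0.434 RPKM over the 20 libraries. The sacral library was the higher in 8, 9 and 7 of the 10 donors for these. The cartilage class thus had 3 of 4 tested members called, and its donor medians were above 0 in all 10 donors, from 0.07 in M1 to 1.17 in M5. Donor medians of the short chain and other class were also above 0 in all 10. That class has 3 tested members, and Col8a2 among them passed the filter only through sacral groups.

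Cartilage genes other than collagens gave 0 calls among 7 tested of 11 (median difference 0.33). The highest of them, Lect1, which codes for chondromodulin, had medians of 9.34 RPKM lumbar and 11.7 sacral (0.31 ± 0.15, limma, adjusted p = 0.197). Acan, the large proteoglycan of cartilage, named here after its values were seen, had medians of 0.244 and 0.635 RPKM, with a higher sacral value in 9 of 10 donors (1.36 ± 0.45, limma, adjusted p = 0.0745). Acan passed the filter only through sacral libraries, where it was high, since its highest lumbar value was 0.8365 RPKM. The summed level of the 11 genes ran from 13.7 to 18.503 RPKM in lumbar male, 17.4 to 23.6 in sacral male, 14.9 to 18.2 in lumbar female and 20.8 to 27.6 in sacral female libraries. None of the 11 was at or under 3 reads in all libraries. Their part in the collagen differences was not tested.

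Type I, the most abundant collagen of bone, tendon and skin, is made of Col1a1 and Col1a2 chains. Col1a1 (chr11:94797538-94814356, plus strand) was at 65.6, 59.1, 47.1, 52.1 and 62.1 RPKM in lumbar male and 95.99, 96.5, 172.4, 49.4 and 54.4 in lumbar female libraries. It was at 82.4, 68.4, 102.3, 98.7 and 122.5 in sacral male and 122.4, 287.1, 167.3, 84.7 and 104.9 in sacral female libraries. F8 alone had the lower sacral value, by 0.04 on the log2 scale, and its lumbar library stood above every other lumbar one. The difference was 0.72 ± 0.17 (1.64-fold, limma, adjusted p = 0.0186), and the adjusted p rose to 0.0762 without M5. Gm17329, on the opposite strand, shares 1152 bases with Col1a1. Col5a1, Col12a1, Col8a2, Col4a1, Col4a2, Col9a3, Col15a1 and Col18a1 also overlap genes on the opposite strand, and reads of such pairs may not have been told apart.

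Col1a2 (chr6:4454814-4491543, plus strand) moved by less. Lumbar values were 44.6, 37.3, 30.2, 36.5 and 37.3 RPKM in males and 50.2, 50.6, 75.2, 30.5 and 31.2 in females. Sacral values were 50.9, 40.9, 53.9, 53.3 and 59.5 in males and 55.4, 116.1, 64.2, 45.2 and 61.9 in females. As for Col1a1, 9 donors were higher on the sacral side and F8 was lower. The difference was 0.51 ± 0.14 (1.42-fold, limma, adjusted p = 0.0333). It was called in 3 of the 10 fits that left out a donor, with an adjusted p of 0.105 at most (without M5). The ratio of Col1a1 to Col1a2 was higher in the sacral library of every donor except F10, with medians of 1.64 lumbar and 1.89 sacral.

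Type V collagen sets the diameter of type I fibrils and is built from Col5a1 and Col5a2. Col5a1 (chr2:27741945-27895034, plus strand) was at 11.3, 9.08, 8.54, 10.6 and 11.8 RPKM in lumbar males and 12.2, 12.5, 18.98, 9.24 and 8.58 in lumbar females. Against these stood 13.3, 11.9, 11.5, 17.3 and 14.3 in sacral males and 16.5, 25.5, 14.5, 11.3 and 15.3 in sacral females. All donors but F8 were higher on the sacral side. The difference was 0.42 ± 0.12 (1.34-fold, limma, adjusted p = 0.0423), with an adjusted p over the threshold in 8 of the 10 fits without a donor (0.122 at most, without F10).

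Col5a2 (chr1:45431166-45560127, minus strand) had 5.79, 4.02, 5.05, 4.80 and 4.72 RPKM in lumbar males and 4.59, 5.65, 8.21, 3.09 and 3.96 in lumbar females. The sacral libraries had 6.50, 4.91, 7.002, 7.15 and 6.99 in males and 5.29, 11.9, 7.03, 5.06 and 5.79 in females. The sign was again positive in 9 donors and negative in F8. At 0.44 ± 0.13 (1.36-fold, limma, adjusted p = 0.0489) it was the called member nearest the threshold, and it was called in 1 of the 10 fits without a donor, that without F8. The Col5a1 to Col5a2 ratio differed little between levels, with medians of 2.23 lumbar and 2.18 sacral.

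Col3a1, the chain of type III collagen and a close companion of type I in soft tissue, lies 24614 bases from Col5a2 on chromosome 1. It showed no call: medians were 54.4 RPKM lumbar (32.4 to 80.9) and 53.1 sacral (43.0 to 75.3), and the sacral value was higher in 6 donors. The difference was 0.07 ± 0.11 (limma, adjusted p = 0.735). Relative to Col3a1, Col1a1 was higher in the sacral library of all 10 donors, F8 included, with a mean log2 change of the ratio of 0.65 ± 0.33 (SD, n = 10). Its median ratio to Col3a1 went from 1.28 in lumbar to 2.07 in sacral libraries. This pair was singled out after the values were seen, so the ratio is given without a test. Col3a1 took from 7.33% of the collagen reads of a library (sacral F7) to 21.5% (lumbar M1).

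Of the remaining fibrillar members, Col27a1 had a difference of 0.63 ± 0.26 with 8 donors higher (limma, adjusted p = 0.144), and it was called in 2 of 19 alternatives. Its levels ran from 0.526 to 2.75 RPKM lumbar and 0.731 to 4.37 sacral. Col5a3 and Col24a1 were not tested, at means of 0.762 and 0.7996 RPKM, and were higher on the sacral side in 5 and 6 donors. The fibrillar class had 4 of 6 tested members called. This count was 3 without F9, 2 without M3, 1 without M1, M7, M8, F3, F7 or F10, and 0 without M5. The class gave 0 calls with no donor block or with no filter, and its median difference was 0.47. Members with 1 run of over 300 glycine-led triplets gave 6 calls of 7 tested, and those with shorter runs 8 of 18. Their medians were 0.51 and 0.60, and 2.70% of all tested genes were called higher. The longer runs all lie in fibrillar and cartilage members, and a link of run length to the level difference was not tested.

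**Figure D3:**
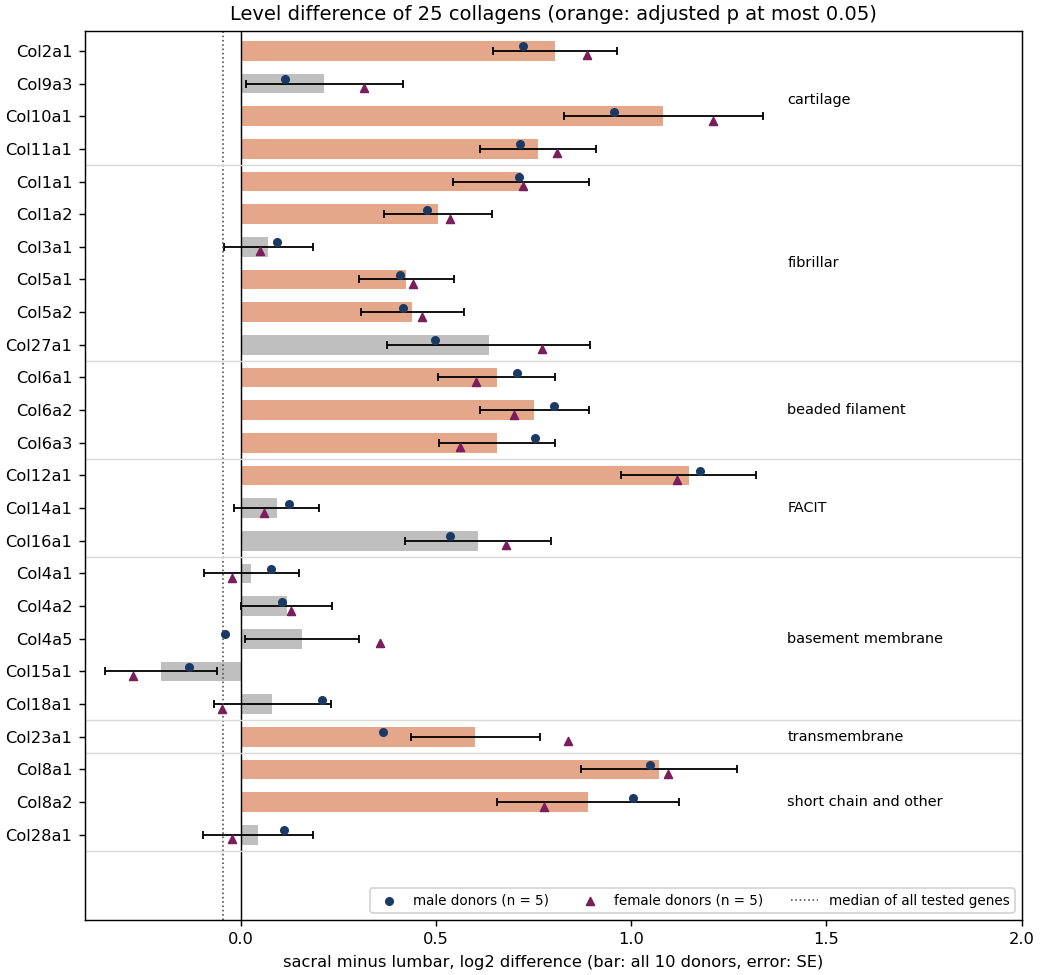
Sacral minus lumbar log2 difference of the 25 tested collagens (bars, with SE) and the same difference in the 5 male (circles) and 5 female donors (triangles); orange bars passed an adjusted p of 0.05. The called differences run from 0.42 (Col5a1) to 1.15 (Col12a1), and those of the basement membrane chains from -0.20 (Col15a1) to 0.16 (Col4a5).

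All 3 tested chains of type VI, the beaded filament that links cells to the surrounding matrix, were higher in sacral DRG. Col6a1 (chr10:76171537-76188913, minus strand) was at 14.4, 8.57, 9.82, 11.6 and 10.02 RPKM in lumbar males and 11.96, 17.6, 23.4, 10.04 and 9.95 in lumbar females. In sacral DRG the values were 19.1, 13.6, 17.5, 17.6 and 20.6 in males and 18.97, 38.8, 18.6, 12.4 and 23.3 in females. The sacral value was the lower in F8 alone. The difference was 0.65 ± 0.15 (1.57-fold, limma, adjusted p = 0.0125), with an adjusted p of 0.0502 without M5 and 0.0521 without F10.

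Col6a2 (chr10:76058507-76086375, minus strand) lies 85161 bases from Col6a1 on the same strand. Lumbar libraries had 9.12, 7.62, 9.40, 9.03 and 9.68 RPKM in males and 11.1, 15.8, 18.7, 8.40 and 8.27 in females. Sacral libraries had 16.5, 12.6, 15.4, 14.1 and 20.5 in males and 16.6, 36.1, 16.5, 12.8 and 20.4 in females. Each donor except F8 was higher on the sacral side. The difference of 0.75 ± 0.14 (1.68-fold, limma, adjusted p = 0.00363) was called in all 20 alternatives, the fit without the donor block included.

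Col6a3 (chr1:92663435-92740529, minus strand) codes for the largest of these chains. Its lumbar values were 6.17, 4.20, 3.34, 4.80 and 4.53 RPKM in males and 6.14, 7.22, 11.6, 4.01 and 4.51 in females. Its sacral values were 7.35, 6.27, 6.90, 9.77 and 8.22 in males and 9.998, 14.6, 7.76, 6.31 and 9.07 in females. The donors again divided into 9 higher and 1 lower, F8. The difference was 0.66 ± 0.15 (1.58-fold, limma, adjusted p = 0.0121) and was called whichever donor was left out. The log2 ratio of Col6a1 to Col6a3 averaged 1.20 ± 0.18 (SD, n = 10) in lumbar and 1.19 ± 0.21 in sacral libraries. Col6a4, Col6a5 and Col6a6, which lie side by side on chromosome 9, were under the filter, at means of 0.0181, 0.0590 and 0.711 RPKM. Col6a4 and Col6a5 had 0 reads in some libraries, and a count of 0 allows up to 3 reads.

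Among the FACITs, Col12a1 (chr9:79446798-79566638, minus strand), which coats type I fibrils in tendon, fascia and periosteum, had the largest difference of the 25. It was at 10.4, 6.67, 10.4, 10.7 and 9.02 RPKM in lumbar males and 10.3, 18.6, 20.6, 6.49 and 8.96 in lumbar females. It was at 17.6, 16.7, 23.98, 18.7 and 31.2 in sacral males and 21.8, 51.1, 19.8, 18.1 and 27.5 in sacral females. The 10 lumbar values reached 20.6 in F8, which 5 sacral libraries exceeded, and F8 alone had the lower sacral value. The difference was 1.15 ± 0.17 (2.21-fold, limma, adjusted p = 0.000538). It was called in all 20 alternatives, with an adjusted p of 0.0112 at most, and within each sex on its own (limma, adjusted p = 0.0310 in males and in females).

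Col14a1, a FACIT of similar build, was not called: medians were 11.2 RPKM lumbar (7.59 to 14.5) and 11.6 sacral (8.47 to 19.4), a difference of 0.09 ± 0.11 (limma, adjusted p = 0.633). The Col12a1 to Col14a1 ratio was higher in the sacral library of all 10 donors, with medians of 0.883 lumbar and 1.76 sacral, a comparison chosen after the values were seen and not tested. Col16a1, which passed the filter only through the sacral females, where it was highest, lay just outside the threshold, at 0.61 ± 0.19 with 9 donors higher (limma, adjusted p = 0.0537). It was called in 4 of 19 alternatives, among them voom on the recovered reads and the fit without F8, at adjusted p-values of 0.0319 and 0.0237 (limma). Col19a1, Col20a1 and Col22a1 were untested, at means of 0.786, 0.164 and 0.898 RPKM. Of the 2 FACITs that passed the filter at both levels, 1 was called.

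The short chain collagens form hexagonal lattices, and Col8a1 (chr16:57624371-57754850, minus strand) was the second most abundant of the 43 by mean level. It stood at 37.1, 17.6, 46.6, 42.2 and 35.4 RPKM in lumbar males and 24.5, 88.3, 67.04, 35.9 and 42.5 in lumbar females. The sacral libraries were at 62.5, 62.1, 77.6, 48.5 and 117.1 in males and 73.2, 208.6, 75.7, 71.7 and 118.1 in females. The value was higher in the sacral library of all 10 donors, and 3 sacral libraries exceeded the highest lumbar one. The difference was 1.07 ± 0.20 (2.10-fold, limma, adjusted p = 0.0038), called in all 20 alternatives.

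Col8a2 (chr4:125964037-125991574, plus strand) was far lower. It was at 1.09, 0.417, 0.598, 1.23 and 0.577 RPKM in lumbar males and 0.451, 1.59, 1.48, 0.804 and 0.7999 in lumbar females. Sacral males had 1.19, 1.37, 1.51, 1.39 and 1.85 and sacral females 1.42, 4.03, 1.27, 0.929 and 1.49. The sacral value was the lower in F8 alone, and sacral F7 stood far above the other females. The gene passed the filter only through the sacral groups, where it was high. The difference was 0.89 ± 0.23 (1.85-fold, limma, adjusted p = 0.0273), called in 4 of the 10 fits without a donor, with an adjusted p of 0.0853 at most (without M5). The median Col8a1 to Col8a2 ratio was 49.0 in lumbar and 52.2 in sacral libraries.

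Col28a1, a collagen described in peripheral nerve and glia, was well expressed and did not follow. Its median was 13.4 RPKM in lumbar (8.29 to 17.7) and 13.9 in sacral libraries (5.36 to 20.2), and the difference was 0.04 ± 0.14 with 6 donors higher (limma, adjusted p = 0.874). Its lowest value of the 20 was in sacral F7, the library with the highest collagen share.

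Col23a1 (chr11:51103422-51397420, plus strand) was the 1 tested member of the transmembrane collagens, which stay anchored in the cell surface. It was at 2.70, 2.67, 2.21, 2.19 and 1.52 RPKM in lumbar males and 1.25, 2.27, 4.56, 1.39 and 1.67 in lumbar females. The sacral values were 2.48, 2.92, 3.27, 2.21 and 3.58 in males and 3.11, 4.75, 3.50, 2.74 and 3.85 in females. M1 and F8 had the lower sacral value, and in M7 the libraries were nearly level. The difference was 0.60 ± 0.17 (1.52-fold, limma, adjusted p = 0.0342), called in 3 of the 10 fits without a donor (0.106 at most, without F10). Col13a1, Col17a1 and Col25a1 were untested, at means of 0.146, 0.0787 and 0.869 RPKM.

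The basement membrane class gave 0 calls of 5 tested members, with a median difference of 0.08, or 0.05 without Col4a5, which passed the filter only through the sacral females. Type IV chains of the common basement membrane are coded by Col4a1 and Col4a2, which lie head to head on chromosome 8 and overlap by 22 bases. Col4a1 (chr8:11198423-11312826, minus strand), the highest of the class, was at 32.3, 31.8, 19.9, 27.1 and 34.6 RPKM in lumbar males and 33.04, 20.8, 26.6, 23.8 and 24.2 in lumbar females. It was at 29.4, 30.1, 18.3, 52.9 and 29.2 in sacral males and 32.9, 22.3, 24.6, 23.999 and 22.4 in sacral females. Only M7, F7 and F9 were higher on the sacral side, M7 by 0.96 on the log2 scale and the others by 0.10 at most. The difference was 0.03 ± 0.12 (limma, adjusted p = 0.914).

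Col4a2 had medians of 24.7 and 25.6 RPKM and a difference of 0.12 ± 0.12 (limma, adjusted p = 0.561), with 5 donors higher. The 3 other tested members had differences of 0.16 ± 0.15 (Col4a5), 0.08 ± 0.15 (Col18a1) and -0.20 ± 0.14 (Col15a1), with limma adjusted p-values of 0.529, 0.771 and 0.393. Col15a1 was lower on the sacral side in 8 of the 10 donors. In 5 of 5 tested members M7 was higher on the sacral side, with a class median of 0.96, and without M7 the class median of the fitted differences was -0.04. M7 was also the donor with the highest median for skeletal muscle markers, 2.42, and for endothelial markers, 0.66. The part of either list in these values was not tested. The 4 untested members, Col4a3, Col4a4, Col4a6 and Col7a1, had means of 0.266, 0.303, 0.134 and 0.0224 RPKM. Among the 18 untested collagens Col4a4 was the 1 that was lower on the sacral side in 9 donors, on 26 to 198 reads per library. That the basement membrane class differs from the others was not tested.

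**Figure D4:**
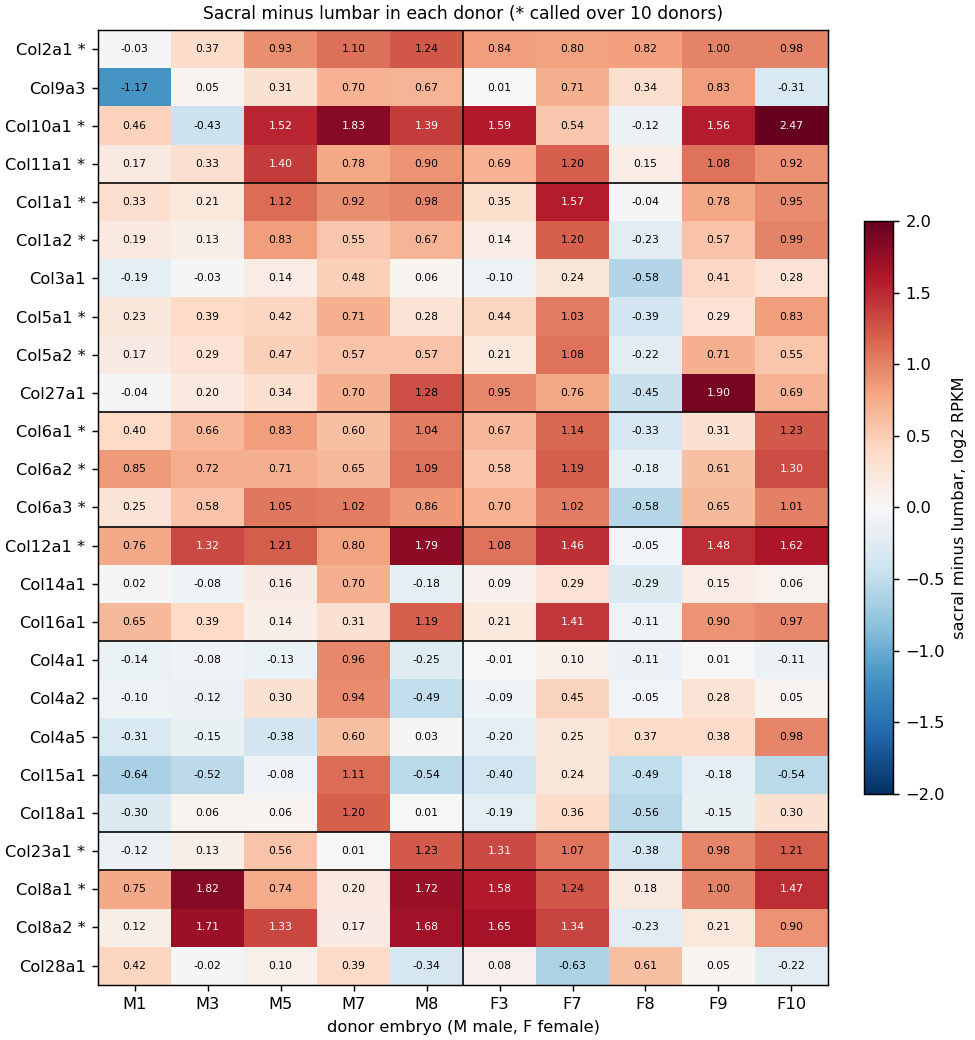
Sacral minus lumbar difference (log2 RPKM) of each of the 25 tested collagens (rows, by class) in each of the 10 donors (columns); red is higher in sacral DRG, the value is printed in each cell, and asterisks mark the 14 called genes. The F8 column is mostly blue outside the cartilage rows, and M7 is the red column within the basement membrane rows.

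The donors differed in how many of the family moved. The number of the 25 tested members with the higher sacral value was 15, 17, 22, 25 and 20 in M1, M3, M5, M7 and M8, and 19, 24, 6, 23 and 21 in F3, F7, F8, F9 and F10. The median difference was 0.17, 0.20, 0.47, 0.70 and 0.86 in the males and 0.35, 1.02, -0.18, 0.61 and 0.92 in the females. F8 was the 1 donor with a median below 0, with 3 of the 14 called genes higher on the sacral side (Col2a1, Col8a1 and Col11a1). In 7 donors all 14 were higher. Over all tested genes the donor medians lay between -0.15 (F7) and 0.08 (M5). Leaving F8 out took the median of the 25 fitted differences from 0.60 to 0.70, and leaving out F9 or M8, which brought 28 and 27 members past the filter, gave 0.49.

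No collagen was called between the sexes. By limma, 0 of 25 were called in lumbar DRG and 0 in sacral DRG, beside 0.330% and 1.01% of all tested genes. At an unadjusted p under 0.05 there was 1 of 25 in lumbar (8.28% of all tested genes) and 3 of 25 in sacral DRG (15.5%), and voom on the recovered reads called 0 in both. Col2a1 was the member nearest to a call, 0.69 ± 0.28 higher in lumbar females and 0.86 ± 0.28 higher in sacral females than in males (limma, adjusted p = 0.143 at the sacral level). Mean Col2a1 levels were 4.36 ± 0.54 (SD, n = 5) RPKM in lumbar male, 7.55 ± 3.32 in lumbar female, 7.54 ± 2.61 in sacral male and 13.8 ± 5.49 in sacral female libraries. The estimate was higher in females for 17 of 25 members in lumbar and 19 of 25 in sacral DRG. Medians over the 25 were 0.33 and 0.29, beside 0.02 and -0.03 over all tested genes. All 25 share the same libraries, so these counts are not of independent genes. The numbers that end the library labels form separate series in males and females, and what they stand for is not stated. Sex therefore cannot be told apart from whatever goes with that numbering. Lumbar F8 and sacral F7, both female, had the highest collagen shares of their levels.

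The level difference did not differ detectably between males and females. For the interaction 0 of 25 members were called, as for 0.00% of all tested genes, with 0 of 25 at an unadjusted p under 0.05 (3.23% of all tested genes) and 0 by voom. The median standard error of an interaction was 0.30 over the 25, beside a median level difference of 0.60. The median level difference was 0.48 in males and 0.56 in females. Col1a1 gave 0.71 in males and 0.72 in females, and Col8a1 1.05 and 1.09. Taken within a sex, Col12a1 was the 1 member called higher in sacral DRG of males (0.172% of all tested genes, and 0.461% in either direction) and the 1 called in females (0.186% and 0.881%).

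Genes that make or modify collagen were in part higher as well. Of 27 tested genes on a list for collagen synthesis, 5 were higher in sacral DRG and 0 lower (2.70% and 4.03% of all tested genes), with a median difference of 0.28. The 5, named here after their values were seen, were Lox (0.83 ± 0.16) and Loxl1 (0.86 ± 0.20), which cross-link fibrils, Plod2 (0.31 ± 0.08), a lysyl hydroxylase, Fkbp10 (0.43 ± 0.12), a collagen chaperone, and Pcolce (0.58 ± 0.16), an enhancer of propeptide cleavage. Each was higher in 9 of the 10 donors (limma, adjusted p = 0.00395 for Lox and 0.0392 at most). Loxl1 lay near the filter, with medians of 0.854 RPKM lumbar and 1.565 sacral. The most abundant gene of the list, Sparc, a collagen-binding matrix protein, had medians of 325 and 361 RPKM (0.10 ± 0.11, limma, adjusted p = 0.612). Among 7 collagen receptors 1 was higher and 1 lower, against the same shares: Ddr2 was higher (0.81 ± 0.20, limma, adjusted p = 0.0235) and Itga2 lower (-0.49 ± 0.12, limma, adjusted p = 0.0185), both again named after their values were seen. The most abundant receptor gene, Itgb1, had medians of 47.9 and 41.7 RPKM (-0.07 ± 0.12, limma, adjusted p = 0.75). Of 6 tested collagenases 0 were called. The highest, the membrane collagenase gene Mmp14, had medians of 15.6 and 20.7 RPKM (0.30 ± 0.10, limma, adjusted p = 0.0818).

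Markers of other connective tissue moved with the collagens in part. Of 12 tested tendon and fibroblast markers 5 were higher and 1 lower, beside 2.70% and 4.03% of all tested genes, with a median of 0.40. The 5 were the matrix genes Fn1 (0.70), Fbn1 (0.52) and Fmod (0.86), the receptor gene Pdgfra (0.62) and the mesenchymal factor Twist1 (1.09), with log2 differences in parentheses and all named after their values were seen. Twist1 passed the filter only through sacral groups, where it was high, with medians of 0.713 RPKM lumbar and 1.42 sacral. The 1 lower, Thy1, which neurons also express, fell in all 10 donors (-0.76 ± 0.20, limma, adjusted p = 0.0281). Dcn, the fibroblast proteoglycan with the highest level on the list, had medians of 76.6 and 90.2 RPKM (0.20 ± 0.10, limma, adjusted p = 0.234). The summed level of the list ran from 186 to 348 RPKM over the lumbar and 233 to 377 over the sacral libraries. Of 6 meningeal markers 2 were higher (2.70% of all tested genes), with a median of 0.66 and a summed level of 75.1 to 534 RPKM lumbar and 105 to 826 sacral. The 2 were the transcription factors Foxc1 (0.85) and Zic1 (0.93), also named after their values were seen. Their most abundant gene, Ptgds, was at medians of 195 and 234 RPKM (0.39 ± 0.30, limma, adjusted p = 0.431).

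Bone markers gave 0 calls of 6 tested identifiers, with a median of 1.10 and a wide spread between donors. Their summed level was 8.29 to 16.1 RPKM in lumbar male, 10.6 to 66.8 in sacral male, 11.8 to 94.2 in lumbar female and 25.9 to 120 in sacral female libraries. Ibsp, the bone sialoprotein gene and the highest of them, had medians of 6.51 and 22.1 RPKM (1.47 ± 0.46, 7 donors higher, limma, adjusted p = 0.0575). Skeletal muscle markers gave 0 of 7 with a median of -0.57 and a summed level of 22.1 to 444 RPKM, led by Acta1 (-0.05 ± 0.33, limma, adjusted p = 0.933). The part of these tissues in the collagen differences was not tested. Whether roots and surrounding tissue were trimmed from the embryonic ganglia is not stated in the sources used here.

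Glial markers were in part lower in sacral DRG, and neuron markers were not called. Of 10 glial markers 0 were higher and 5 lower in sacral DRG, beside 2.70% and 4.03% of all tested genes (median -0.37), and the list's median was below 0 in all 10 donors. Mbp, a myelin protein gene, fell in all 10 donors (-0.58 ± 0.08, limma, adjusted p = 0.000196), as did Mal (-0.68 ± 0.16, limma, adjusted p = 0.0163), also of myelin. Fabp7 (-0.40) and S100b (-0.67), named after their values were seen, were also lower. The most abundant of the list, Pmp22, was at medians of 211 and 163 RPKM (-0.32 ± 0.11, limma, adjusted p = 0.0951). Sensory neuron markers gave 0 of 10 (median -0.18), with Prph, a neuronal intermediate filament gene, at 252 and 179 RPKM (-0.45 ± 0.18, limma, adjusted p = 0.137). Of 5 tested endothelial markers 2 were higher, beside 2.70% of all tested genes (median -0.004), the most abundant, Cdh5, among them (0.46 ± 0.12, limma, adjusted p = 0.0235). The other was the receptor gene Tek (0.54), named after its value was seen. Macrophage markers gave 0 of 3, with C1qb at medians of 8.19 and 8.45 RPKM (0.05 ± 0.10, limma, adjusted p = 0.782). No marker on these lists was at or under 3 reads in every library. Values are relative to the other genes of a library, so they do not give amounts of RNA. Less glial RNA and more RNA of other cells can both lower a glial value, and which applied was not tested.

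**Figure D5:**
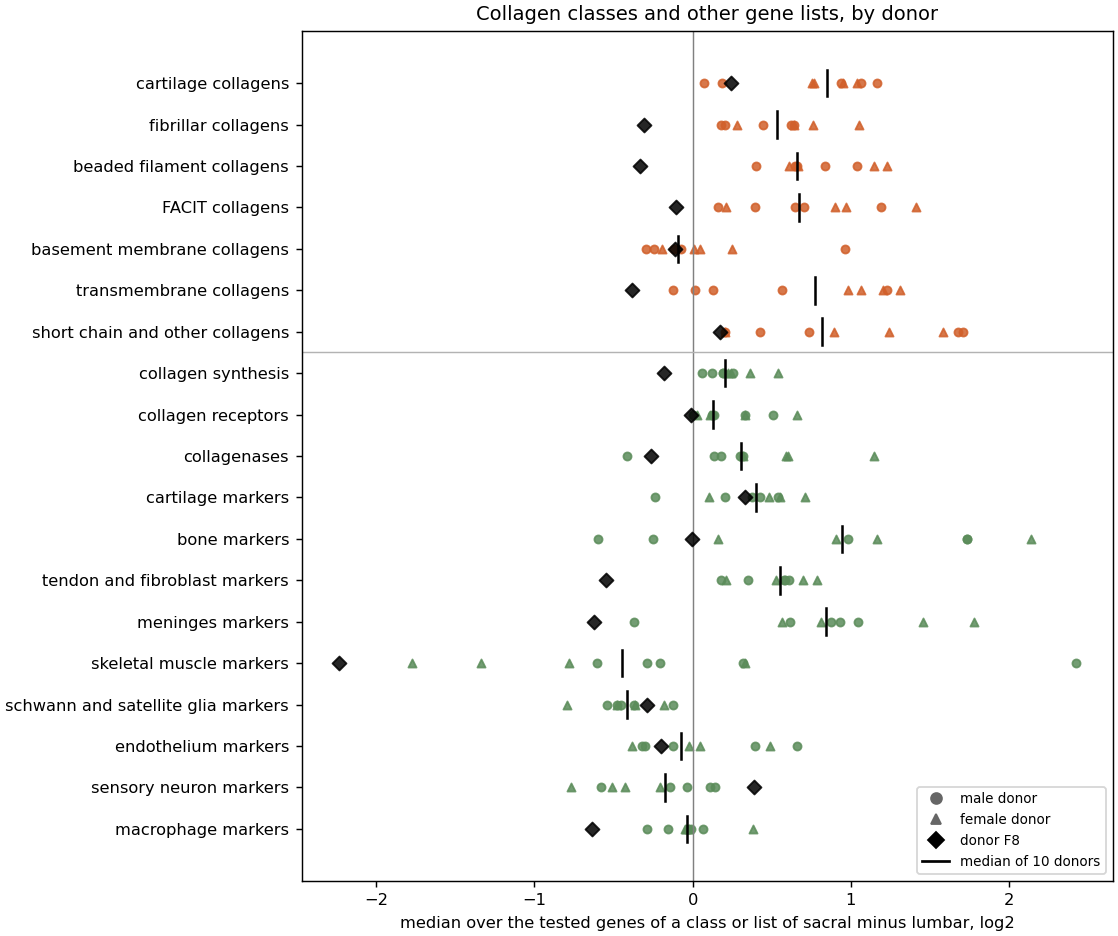
Median sacral minus lumbar log2 difference over the tested genes of each collagen class (orange) and of each other list (green), 1 point per donor; diamonds mark F8 and bars the median of 10 donors. Cartilage collagens and short chain and other collagens are above 0 in all 10 donors, and glial markers below 0 in all 10. F8 is below 0 for, among others, fibrillar, beaded filament, FACIT, fibroblast, meningeal and muscle genes.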

How the data were processed

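RNA from whole DRG was purified on columns, amplified and sequenced by the authors, who aligned reads with Subread (1.18 and 1.20.6 are listed) to mm9, counted unique reads per Ensembl gene with featureCounts, and normalized them with edgeR 3.12.1 (TMM) and voom in limma 3.26.9. The deposited values are log2 RPKM per gene and library. Blank cells mean no reads and were set to the value of 0.5 read. Whether counting used the strand is not stated in the sources used here.

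From the steps of the values whole reads were recovered for 28324 genes (97.7% of values whole within 0.05 of a read), and 725 genes with a value were not recovered. These reads give the depths and shares, and their 95% Wilson intervals. A count of 0 allows up to 3 reads.

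Genes with a geometric mean of at least 1 RPKM (mean log2 RPKM of at least 0) in 1 or more groups (14529) were fitted on log2 RPKM with limma 3.58.1 in R 4.3.3: 4 group means, donor as a random block (correlation 0.34), a trended prior, and Benjamini-Hochberg adjustment over all tested genes at 0.05. The level difference is the mean of those in males and females. The design pairs the libraries, since the labels give both levels of a donor as 1 embryo. The deviations of the paired libraries correlated between -0.17 (M8) and 0.68 (M5). For 4 of the 10 lumbar libraries (M1, M5, F3 and F7) the closest sacral library was that of the same donor. Donors are separate embryos. The scripts were tested on simulated data. Glycine runs and exons were read from the mm9 genome with GENCODE M1.

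The members and gene lists were chosen with earlier results of these data known. The value in every library is given for called members and for the most abundant tested member of each class. Genes of other lists are named if they are called with the same sign in all 10 donors or are the most abundant of their list; others are marked as chosen after their values were seen. Alternatives were no donor block, donor as a fixed effect, other filters, pseudocounts of 0.5 and 1 RPKM, centring on tested genes, sample weights, the mitochondrial rRNA share as a covariate, voom on recovered reads, and leaving out each donor. The voom fit kept the library scaling of the deposited values and the same filter, so it is no check on either.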

Additional observations from a re-analysis of the deposited data

Results flagged for a closer look

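Sets of the 5 libraries of a group were searched for a highest or lowest library far from the nearest other. Of 64 sets, 7 passed Dixon's 95% critical value for 5 samples (a gap of 0.71 of the range), each for 1 gene. Chance flags about 1 in 20 such sets if values are normally distributed, and the flagged values were RPKM without a log. Sacral F7 was the high library in 5 of the 7, all in sacral females. Col11a1 was at 19.9 RPKM there, with the nearest library at 11.1. Col1a2 was at 116 RPKM against 64.2. Col5a2 was at 11.9 RPKM against 7.03, and Col12a1 was at 51.1 against 27.5. Col8a2 was at 4.03 RPKM against 1.49. The other two were Col5a2 in sacral M3, the lowest sacral male at 4.91 RPKM with the nearest at 6.50, and Col4a1 in sacral F3, the highest sacral female at 32.9 RPKM (32.85) with the nearest at 24.6. Without donor F7, 9 of the 14 members were still called higher, Col11a1 and Col12a1 among them, and Col1a2, Col5a2 and Col8a2 were not (limma, adjusted p = 0.078, 0.11 and 0.0523). The sets share libraries, so the flags are not independent of each other.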

How the results depend on the processing

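The 14 calls depended on the donor block and on the filter. With no donor block, so that the pairing was ignored, 3 collagens were called higher (limma, adjusted p = 0.0419 for Col6a2, 0.0112 for Col12a1 and 0.0443 for Col8a1), and with no filter on low values, where 29049 genes share the adjustment, 8 were. Leaving out 1 donor gave between 7 (M5 or F10) and 15 (F8). With donor as a fixed effect 12 were called, after a filter at 5 RPKM 11 of 16 tested, with either pseudocount 14, after centring 13, with sample weights 16, with the mitochondrial rRNA share as a covariate 14, and by voom 15. None of the 20 alternatives called a collagen lower or for the interaction, and none of the 19 that can test sex called one between the sexes (donor as a fixed effect cannot). Over 277 alternative values of the 14 called members 214 kept the call and 63 lost it, and over 214 of the 11 others 6 gained one (Col16a1 and Col27a1). None changed direction while called. Col6a2, Col12a1 and Col8a1 were called in all 20 alternatives. The median of the tested collagens stayed between 0.39 (RPKM + 1) and 0.70 (without F8). Over all genes, calls ranged from 154 with no donor block to 2998 with sample weights, against 978. For the other changes the cause was not tested. The 18 untested collagens had at most 464 reads in a library, which limits what could be seen in them.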
